A study of Homo sapiens with 6 samples.

Results

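The genes described here handle zinc inside the cell: the metallothioneins MT1E, MT1F, MT1G, MT1H, MT1HL1, MT1M, MT1X, MT2A and MT3, which bind and store the metal, MTF1, the zinc-sensing transcription factor, 10 zinc exporters of the SLC30A family and 14 zinc importers of the SLC39A family. They were chosen by gene symbol and not by a cut on intensity, and every gene whose probe sets carry such a symbol alone was kept, which gave 34 of 19775 genes and 73 probe sets. The family itself was selected on knowledge of the hypoxia minus normoxia changes of these same arrays, so changes and calls are given as a description and support nothing independently. RNA came from MM1S, an established human multiple myeloma cell line, on 3 arrays labelled hypoxia and 3 labelled normoxia. The treatment text names 24 h of hypoxia on all 6 arrays, and the sources used here give no oxygen concentration.

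Metallothioneins are small cysteine-rich proteins that hold zinc and copper and release them again. When free zinc is high, MTF1 enters the nucleus, binds metal response elements in promoters, and drives the metallothionein genes and SLC30A1. Most SLC30A proteins move zinc out of the cytosol, either across the plasma membrane or into vesicles and the secretory pathway. SLC39A proteins bring zinc into the cytosol from outside or from compartments. Roles were given by family, so SLC30A9, a mitochondrial zinc exporter, and SLC30A10, a manganese exporter, count among the 10 exporters. Plasma cells, the cell type of myeloma, depend on a large secretory pathway, which receives zinc through several of these transporters.

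The first 250 bases before the transcription start are shown for 6 members, since metal response elements there are how MTF1 is known to reach its targets. They come from RefSeq on GRCh38.p14. Capitals mark the letters TGCACNC or TGCGCNC on either strand, the core of the metal response element, and all other bases are in lower case.
MT2A, chr16:56608334-56608583, plus strand: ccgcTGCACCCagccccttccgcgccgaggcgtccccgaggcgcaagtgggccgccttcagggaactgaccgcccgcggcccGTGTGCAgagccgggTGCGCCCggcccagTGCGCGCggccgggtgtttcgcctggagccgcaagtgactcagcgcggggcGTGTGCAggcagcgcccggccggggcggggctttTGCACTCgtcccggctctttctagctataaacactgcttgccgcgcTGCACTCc
MT1H, chr16:56669564-56669813, plus strand: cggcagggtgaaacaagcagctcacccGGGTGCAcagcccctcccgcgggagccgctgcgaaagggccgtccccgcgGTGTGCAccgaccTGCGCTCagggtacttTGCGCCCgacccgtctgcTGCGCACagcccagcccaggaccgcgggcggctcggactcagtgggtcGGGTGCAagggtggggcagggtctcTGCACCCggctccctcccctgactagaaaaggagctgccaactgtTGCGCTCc
MT1X, chr16:56682220-56682469, plus strand: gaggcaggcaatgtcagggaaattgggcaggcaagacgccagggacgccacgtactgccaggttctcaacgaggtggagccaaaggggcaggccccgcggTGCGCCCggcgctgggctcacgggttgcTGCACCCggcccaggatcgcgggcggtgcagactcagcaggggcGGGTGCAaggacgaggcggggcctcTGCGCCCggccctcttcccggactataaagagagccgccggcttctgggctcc
SLC30A1, chr1:211579162-211579411, minus strand: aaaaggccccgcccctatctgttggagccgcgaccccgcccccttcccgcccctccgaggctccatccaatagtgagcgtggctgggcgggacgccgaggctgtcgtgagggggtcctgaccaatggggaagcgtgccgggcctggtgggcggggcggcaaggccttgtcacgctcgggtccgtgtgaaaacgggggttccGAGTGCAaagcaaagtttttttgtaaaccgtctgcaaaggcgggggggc
SLC39A3, chr19:2740077-2740326, minus strand: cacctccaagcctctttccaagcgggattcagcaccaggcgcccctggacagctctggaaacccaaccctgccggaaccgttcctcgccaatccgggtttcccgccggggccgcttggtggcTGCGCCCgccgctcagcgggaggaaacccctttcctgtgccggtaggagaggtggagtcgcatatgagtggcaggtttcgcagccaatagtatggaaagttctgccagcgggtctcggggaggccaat
SLC39A10, chr2:195656708-195656957, plus strand: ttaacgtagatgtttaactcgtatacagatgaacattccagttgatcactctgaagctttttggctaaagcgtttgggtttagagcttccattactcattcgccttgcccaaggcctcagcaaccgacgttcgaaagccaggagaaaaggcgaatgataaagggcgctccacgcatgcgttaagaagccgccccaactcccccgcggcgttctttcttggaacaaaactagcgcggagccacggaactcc
The windows of MT2A, MT1H and MT1X held 7, 8 and 4 such stretches, that of SLC30A1 held 1, that of SLC39A3 held 1 and that of SLC39A10, the first of 2 listed for the gene, held 0. In MT2A and MT1H the stretch nearest the start began 8 bases before it. Promoter windows were found for 25 of the 34 members, 34 windows in all, and 3 of these belonged to metallothioneins. Among all 35116 windows of the table, 24.8% held at least 1 stretch and 5.53% held 2 or more that did not overlap each other. All 3 metallothionein windows held 2 or more, against 2 of 11 SLC30A windows and 0 of 19 SLC39A windows. At least 1 stretch was held by 6 of the 11 SLC30A windows (54.5%) and 5 of the 19 SLC39A windows (26.3%). The letters ACGTG or GCGTG on either strand, the core of the element bound by hypoxia-inducible factors, were present in 2 of the 3 metallothionein windows, in 8 of 11 SLC30A windows, in 10 of 19 SLC39A windows and in 43.2% of all windows. In MT2A the 1 such stretch overlapped a metal response core. These matches describe letters in a window and are not evidence of binding.

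The arrays gave 1 linear intensity per probe set in arbitrary units, with an array median of 54.95 to 60.13. A gene or probe set whose mean lay at or below the highest array median in both conditions is called dim, because no detection calls were used and such a signal cannot be told from background. Changes are differences of log2(intensity + 16), hypoxia minus normoxia, with 95% confidence intervals from limma, and they understate the change of dim genes. A gene is read by its brightest probe set and is said to have risen or fallen where its limma adjusted p was under 0.05 over all 19775 genes. All 7 plasma cell markers measured lay above the array medians, with a summed intensity of 35355 to 37437.8 in hypoxia and 35900.4 to 37567.6 in normoxia. XBP1 among them rose and SDC1, CD38 and SLAMF7 fell. Markers of other cell types summed to 84.24 to 284.8 in hypoxia and 92.64 to 288.1 in normoxia for T cells, myeloid cells, stroma and epithelium, among which CD3D and EPCAM rose and CD14 and LYZ were dim, and no marker was at 0. The epithelial sums did not overlap (195.6 to 235 in hypoxia, 169.9 to 179.5 in normoxia). Of the erythroid markers ALAS2 was dim, while an _x_at probe set of HBB lay at 1101.6 to 1155.8 in hypoxia and 1676.9 to 1898.1 in normoxia and fell. COL1A1, DCN, KRT8 and KRT18 were also read by _x_at probe sets. Intensities of different probe sets share no common scale and the lists differ in length, so the sums do not measure cell content. The part of the cell type markers in the results below was not tested.

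Most storage genes were higher in hypoxia, and most of the zinc importers and most of the exporters that passed were lower. Of the 34 genes, 10 rose, 11 fell and 13 did not pass, where 16.9% of all genes rose and 20.6% fell, and nothing is read from these counts because the contrast was known when the family was proposed. By role, 7 of 9 metallothioneins rose and 0 fell, 1 of 10 exporters rose and 3 fell, and 2 of 14 importers rose and 7 fell. The median change was 2.04 for storage, -0.11 for export and -0.12 for import, against -0.00016 over all genes. With _x_at probe sets left out, 3 of the 28 remaining members rose and the storage median was -0.068 over MT1G, MT1M and MT3, all dim. Without dim genes the medians of export and import were -0.27 and -0.46. Single arrays also moved them: without hypoxia replicate 2 the import median was -0.23 and the export median -0.16. Without normoxia replicate 1 the export median was -0.062, a smaller shift. The 3 hypoxia arrays lay wholly above the 3 normoxia arrays for 11 members and wholly below for 12, where 22.1% and 25.8% of all genes did so. RNA was taken from whole cultures, so fewer cells with a transcript and fewer transcripts per cell cannot be told apart.

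**Figure D1:**
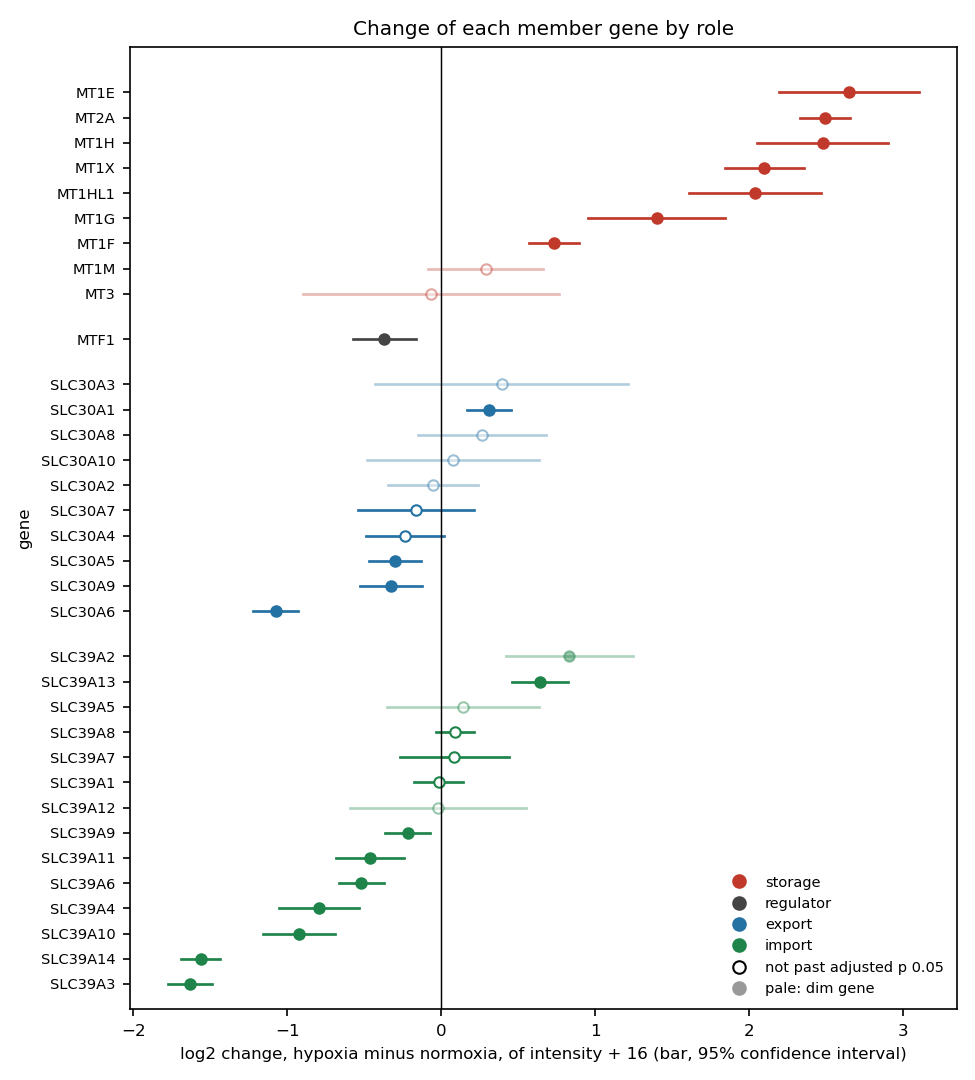
Change of each of the 34 genes (log2(intensity + 16), hypoxia minus normoxia), with 95% confidence intervals from limma, grouped by role. Filled points passed an adjusted p of 0.05 and pale ones are dim. The 7 storage genes that passed lie between 0.73 and 2.65, and the 7 importers that fell lie between -1.63 and -0.22.

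The metallothioneins carried the largest rises among the members. MT2A, the main type 2 metallothionein of most tissues, had 2619.8, 2757 and 2496 in the 3 hypoxia arrays, against 440.4, 442.2 and 476.7 in the normoxia arrays. The groups were far apart, and the ratio of mean intensities was 5.79 (log2 change 2.49, 95% confidence interval 2.33 to 2.66). MT1X, a type 1 form, had 1671.5, 1918.5 and 1919.7 in hypoxia, against 406.6, 376.4 and 469.4 in normoxia. Every hypoxia array lay far above every normoxia array, and its log2 change was 2.10 (1.84 to 2.36).

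MT1H had 1042.1, 1337.9 and 1326.9 in hypoxia, against 163.3, 222.2 and 244.5 in normoxia (log2 change 2.48, 2.05 to 2.90). MT1HL1 is a MT1H-like gene that RefSeq places on chromosome 1 and not in the cluster of chromosome 16. It had 983.8, 1366.2 and 1401.3 in hypoxia, against 245.7, 295.5 and 331.9 in normoxia (log2 change 2.04, 1.61 to 2.47). Like MT1H it was read by a single _x_at probe set, which may match other transcripts, so a rise outside the cluster is not shown. Both genes had their lowest array numbered 0 in either condition. MT1E had 351, 468.2 and 482.7 in hypoxia, against 40.92, 66.55 and 60.44 in normoxia. Its normoxia values straddled the array medians, so its log2 change of 2.65 (2.19 to 3.11), the highest point estimate of the family, rests on a normoxia level close to background. The intervals of MT1E, MT2A and MT1H overlapped, so their order is not resolved.

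MT1G had 249.8, 320.4 and 298 in hypoxia, against 78.02, 95.62 and 129.8 in normoxia (log2 change 1.40, 0.95 to 1.84). The call of MT1G was lost as the mean of both its probe sets (log2 change 0.61, limma adjusted p = 0.0634) and with its probe set that is not _x_at (-0.18, limma adjusted p = 0.673). MT1F had 1552.5, 1567.6 and 1567.4 in hypoxia, against 894.7, 905.6 and 1008.5 in normoxia. Its log2 change was 0.73 (0.57 to 0.90), below that of the other 6 that rose when each gene is read by its brightest probe set. The second MT1F probe set changed by 1.01 (0.80 to 1.21), a range that meets that of MT1G, so their order is not resolved. MT3, a form best known from the brain, had 22.67, 59.07 and 71.77 in hypoxia, against 48.56, 38.59 and 67.3 in normoxia, so the groups overlapped. MT1M had 9.83, 4.97 and 1.13 in hypoxia, against 1, 1 and 1.64 in normoxia. Both MT3 and MT1M were dim and did not pass. The array numbered 0 was the lowest of its condition for 6 of the 7 genes that rose, in hypoxia and in normoxia alike. Their probe sets, all _x_at, may match the same transcripts, and the share over all genes was not counted. The storage median stayed at 1.93 to 2.16 when any 1 array was left out.

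Every metallothionein probe set that rose was of the _x_at kind, which by the maker's naming holds probes that also match other transcripts. The family had 13 probe sets, of which all 10 _x_at ones rose (0.73 to 2.65) and the 3 others, for MT1G, MT1M and MT3, were dim and did not pass. In the fit over all 54613 probe sets 15.5% rose and 15.2% fell. The 2 probe sets of MT1G went apart: the _x_at one is given above, while the other had 29.3, 29.81 and 47.61 in hypoxia, against 37.19, 27.18 and 67.96 in normoxia. MT1E was read by 2 _x_at probe sets with log2 changes of 2.65 and 1.41, and MT1F by 2 with 0.73 and 1.01. The brighter probe set of MT1X lists a target accession that RefSeq assigns to MT1L, a transcribed pseudogene of the cluster, and the other, targeting MT1X itself, had a log2 change of 2.25. Which of the near-identical transcripts contributed to each value cannot be told from these arrays, so the level of a single named metallothionein is uncertain. The changes of the _x_at probe sets differed beyond their intervals, for example between MT1F at 0.73 (0.55 to 0.92) and MT2A at 2.49. So did those of the 2 MT1E probe sets (2.20 to 3.10 and 1.14 to 1.68), so such a difference does not tell genes apart.

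**Figure D2:**
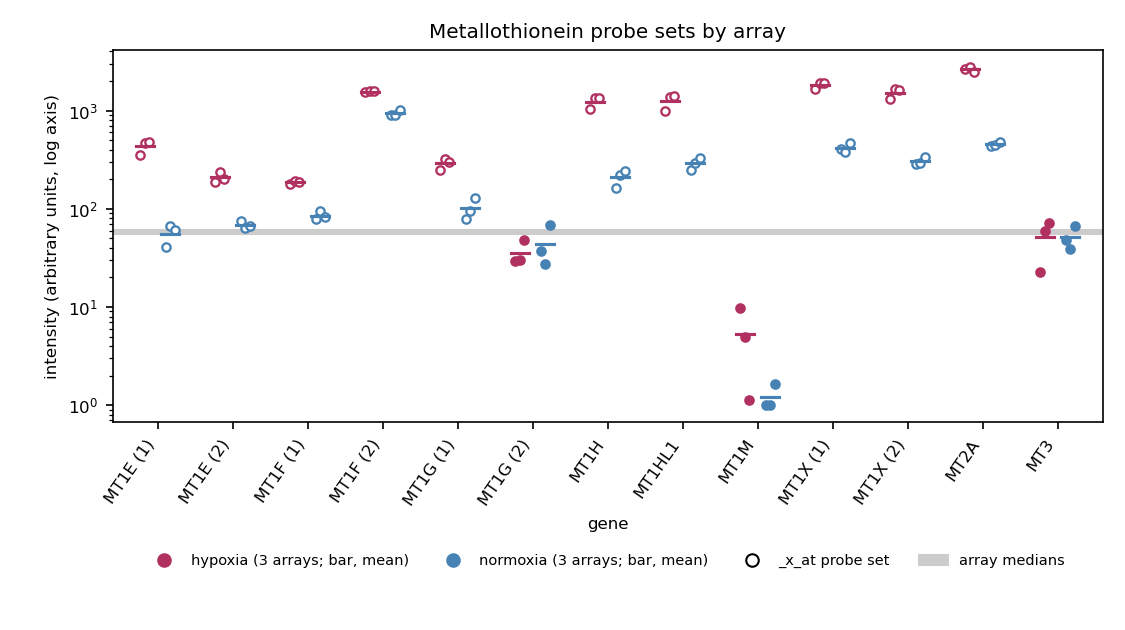
Intensity of each metallothionein probe set on a log axis, with the 3 hypoxia arrays left and the 3 normoxia arrays right; bars are means, open points are _x_at probe sets and the grey band holds the array medians. All 10 _x_at probe sets are higher in hypoxia with no overlap, and the 3 others, with means below the band, overlap.

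Of the 9 metallothionein genes described here, 8 lie in 1 run on chromosome 16 in RefSeq. MT4, in the same run but not among the symbols chosen, was dim and did not pass. Its means were 25.05 in hypoxia and 19.37 in normoxia. The 3 nearest genes coding for proteins on each side of the run, picked by position after the cluster's values were seen, were read as well. BBS2, next to the run, rose by 0.57, while NUDT21 and OGFOD1 beyond it fell by 0.94 and 1.25. On the other side NUP93 fell by 1.13, SLC12A3 was dim and overlapped, and HERPUD1, a gene of the endoplasmic reticulum stress response, had a mean of 10329.3 in hypoxia and 9929.7 in normoxia without passing. The neighbours thus did not share 1 direction.

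MTF1, the regulator, was lower in hypoxia. It had 402.8, 445 and 455 in hypoxia, against 518, 597.6 and 582.4 in normoxia, with no overlap (log2 change -0.37, -0.57 to -0.16). Its call was lost without normoxia replicate 1 or 2 (limma adjusted p = 0.0563 and 0.0577). All 3 of its probe sets had every hypoxia array below every normoxia array, and 2 of them passed over all probe sets. These are transcript levels, and the activity of MTF1 as a protein was not measured.

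Among the exporters, SLC30A1, the plasma membrane exporter and a known MTF1 target, rose. Its brightest probe set had 3658.5, 3929.5 and 3838.5 in hypoxia, against 2980.9, 3149.8 and 3085.9 in normoxia (log2 change 0.31, 0.16 to 0.45). A second had 1011.8, 1051.3 and 1091.8 in hypoxia, against 402.1, 390.3 and 398.5 in normoxia (log2 change 1.37, 1.20 to 1.53). Both rose with no overlap but by different amounts, and their intervals did not meet; the last probe set of the gene lay at 1 in all hypoxia arrays and was dim.

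SLC30A6, which partners SLC30A5 to bring zinc into the early secretory pathway, fell most among the exporters. It had 547.7, 525.8 and 507.6 in hypoxia, against 1169.7, 1127.1 and 1091.1 in normoxia (log2 change -1.08, -1.23 to -0.93). Of its 4 probe sets, 3 fell, with changes of -1.31 to -1.08, and the dim one overlapped. The probe set at -1.31 was of the _x_at kind. SLC30A5 itself had 1490.3, 1502 and 1433.3 in hypoxia, against 1748.1, 1963.7 and 1754.6 in normoxia (log2 change -0.30, -0.47 to -0.13). That probe set is of the _x_at kind, and with the brightest other one the change was -0.19 and the call was lost (limma adjusted p = 0.219), as it was without hypoxia replicate 2. Of the 5 probe sets of SLC30A5, 3 fell, the _x_at ones among them, with changes of all 5 between -0.85 and -0.19. Among those not _x_at, only that at -0.85 passed over all probe sets. SLC30A9, a mitochondrial zinc exporter, had 1465.8, 1304.6 and 1245.8 in hypoxia, against 1750.1, 1695.5 and 1599.9 in normoxia (log2 change -0.33, -0.53 to -0.13). Its call was lost without any of 4 single arrays (hypoxia replicates 1 and 2, normoxia replicates 0 and 1; limma adjusted p = 0.0721 to 0.0747), while its second probe set fell by 0.72 over all probe sets.

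The other exporters did not pass. SLC30A7, of the Golgi, averaged 615.6 ± 121 in hypoxia and 683.2 ± 36.9 in normoxia (SD, n = 3 each). SLC30A4, of intracellular vesicles, averaged 263.6 ± 12.3 in hypoxia and 314.9 ± 40.6 in normoxia (SD, n = 3 each), and its arrays only just failed to overlap. SLC30A2, SLC30A3, SLC30A8, which loads the insulin granules of beta cells, and SLC30A10, a manganese exporter, were dim, and their arrays overlapped.

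The importers held the largest falls of the family. SLC39A3, a plasma membrane importer, had 426.8, 448.2 and 449.4 in hypoxia, against 1418.2, 1350 and 1445.3 in normoxia. Hypoxia kept 0.314 of the normoxia mean (log2 change -1.63, -1.78 to -1.49). SLC39A14, which takes up zinc, iron and manganese, had 785.9, 781.9 and 798.9 in hypoxia, against 2361.9, 2320.6 and 2404.6 in normoxia (log2 change -1.56, -1.69 to -1.44). In both genes the spread within a condition was small beside the gap. Their dimmer probe sets did not pass: for SLC39A14 they changed by -0.18 and 0.13, and for SLC39A3 by -0.21 and -0.39, so each fall rests on 1 of 3 probe sets.

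SLC39A10, a plasma membrane importer that MTF1 is reported to repress in mouse, had 869.5, 733.8 and 738 in hypoxia, against 1604.6, 1477.5 and 1392.7 in normoxia (log2 change -0.92, -1.16 to -0.69). SLC39A4, the importer whose loss causes the zinc deficiency acrodermatitis enteropathica, had 235.6, 225.7 and 211.2 in hypoxia, against 460.5, 358.3 and 386.4 in normoxia (log2 change -0.79, -1.05 to -0.53). Each of the 2 was read by a single probe set with no overlap between conditions. SLC39A6, which forms a complex with SLC39A10, had 3054.9, 3327.2 and 3266.8 in hypoxia, against 4560.8, 4644 and 4637.2 in normoxia (log2 change -0.52, -0.66 to -0.37). Of its 4 probe sets, 3 fell and the changes of all 4 lay between -0.98 and -0.52, so every probe set of the gene pointed the same way.

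SLC39A11 had 331.2, 382.7 and 381.7 in hypoxia, against 473.6, 504.4 and 549.8 in normoxia (log2 change -0.46, -0.68 to -0.24). SLC39A9, a zinc transporter of the Golgi, had 1221.2, 1197.2 and 1209 in hypoxia, against 1468.9, 1339.9 and 1418 in normoxia (log2 change -0.22, -0.36 to -0.072). The fall of SLC39A9 was the smallest and its call was lost under 7 alternatives, 5 of them the omission of 1 array; over all probe sets none of its 4 passed.

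SLC39A13, which releases zinc from intracellular compartments and is needed in connective tissue, was the importer above the array medians that rose. It had 307.7, 287.8 and 334.8 in hypoxia, against 193.8, 198.6 and 185.1 in normoxia (log2 change 0.64, 0.46 to 0.83), and its dimmer probe set had a change of 0.45 without passing. SLC39A2 had 42.22, 26.7 and 31.28 in hypoxia, against 9.27, 17.51 and 8.61 in normoxia (log2 change 0.83, 0.42 to 1.25), all below the array medians. Its rise therefore lies in the range of background.

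SLC39A7, the zinc release channel of the endoplasmic reticulum, averaged 1935.1 ± 326 in hypoxia and 1809 ± 150 in normoxia (SD, n = 3 each), with overlap. SLC39A8, a zinc and manganese importer, averaged 5233.5 ± 5.03 in hypoxia and 4921.3 ± 49.3 in normoxia (SD, n = 3 each). Its arrays did not overlap, but the change of 0.089 (-0.034 to 0.21) did not pass, and none of its 6 probe sets did. SLC39A1 averaged 558.6 ± 32.4 in hypoxia and 564.6 ± 9.01 in normoxia (SD, n = 3 each), with a change of -0.016 (-0.17 to 0.14). SLC39A5 and SLC39A12 were dim and overlapped. The 9 dim members together had means of 1.21 to 57.9, and SLC39A2 was the 1 that passed. The importers thus ranged from large falls to a rise, and no single direction covered the family.

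**Figure D3:**
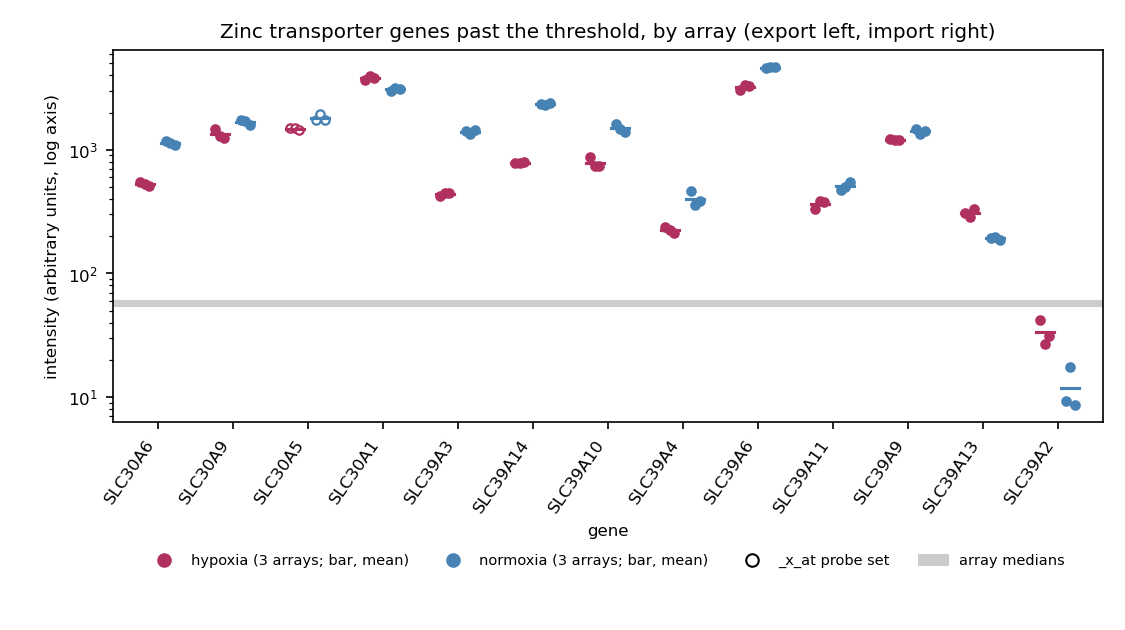
Intensity on a log axis of the zinc transporter genes past the threshold, 4 exporters and 9 importers, with the 3 hypoxia arrays left and the 3 normoxia arrays right; bars are means and the grey band holds the array medians. Of these 13 genes, SLC30A1, SLC39A13 and the dim SLC39A2 are higher in hypoxia, and the other 10 are lower.

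Set side by side by array, over the genes that were not dim, the mean log2(intensity + 16) of the 7 storage genes was 9.90, 10.16 and 10.14 in hypoxia, against 7.90, 8.09 and 8.25 in normoxia. The 6 exporters were at 9.87, 9.94 and 9.87 in hypoxia, against 10.21, 10.20 and 10.17 in normoxia. The 11 importers were at 9.72, 9.77 and 9.78 in hypoxia, against 10.25, 10.21 and 10.25 in normoxia. Arrays of 1 condition lay together in each role and the conditions did not overlap. The differences were 1.98 for storage, -0.30 for export and -0.48 for import. Genes were kept by brightness in either condition, so these means are a description without a test. MT1E was kept through its hypoxia mean alone, its normoxia mean being 55.97. No such mean was formed over all genes that were not dim, so a shift shared by bright genes cannot be told apart.

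**Figure D4:**
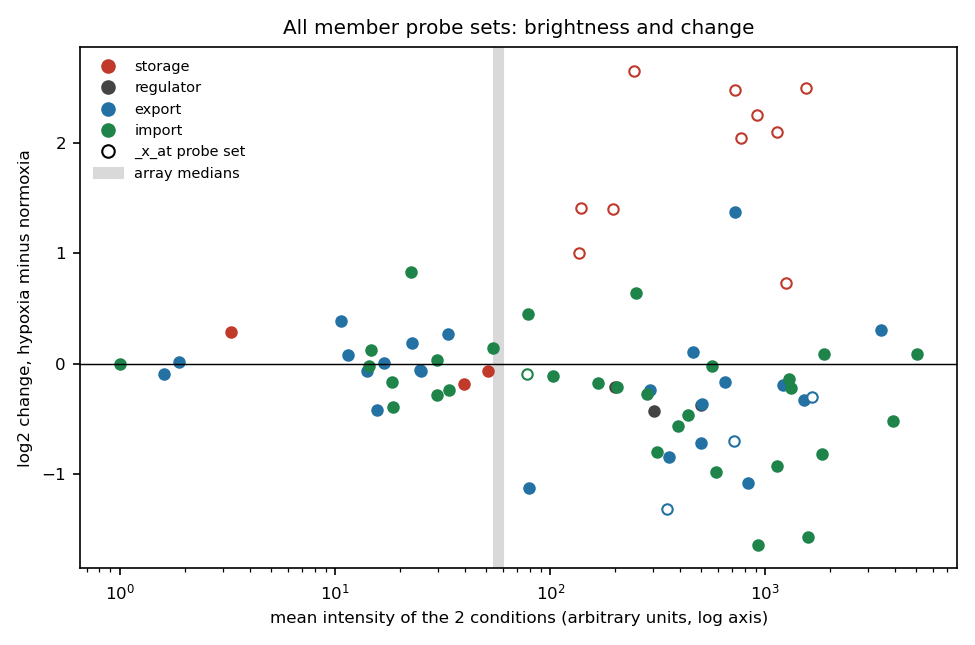
Mean intensity of the conditions (log axis) against the log2 change, hypoxia minus normoxia, for all 73 member probe sets, with _x_at probe sets open and the array medians as a grey band. Storage probe sets right of the band lie at 0.73 to 2.65 and all are open; the 24 dim probe sets lie between -0.42 and 0.83, the highest being SLC39A2.

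Over the 73 member probe sets, 14 rose, 18 fell and 41 did not pass, where 15.5% of all probe sets rose and 15.2% fell. Of the 20 genes with several probe sets, 0 had probe sets past the threshold in opposite directions. In 4 (MT1E, MT1F, MT1X and SLC30A9) every probe set passed the same way. MT1E, MT1F and MT1X are read by _x_at probe sets alone, which may match the same transcripts. How often all genes with several probe sets did so was not counted, so nothing is read from these counts.

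Other groups of metal-handling genes are given for context. Of 15 copper-handling genes measured, 3 rose, 6 fell and 6 did not pass, with a median change of -0.11. STEAP1 and STEAP3, of a family of metalloreductases that reduce iron and copper, averaged 119.2 ± 24.4 and 218.2 ± 9.2 in hypoxia, against 788.6 ± 16.9 and 491.8 ± 16.2 in normoxia (SD, n = 3 each). ATP7A, a copper-exporting ATPase, rose by 1.17 and SCO1, a copper chaperone of cytochrome oxidase, fell by 0.90. Of 15 other genes of zinc and divalent metal handling, 2 rose, 3 fell and 10 did not pass, with a median change of 0.10. SLC41A1, a magnesium transporter, rose by 0.75 and SLC11A2, an importer of iron and other divalent metals, rose by 0.60, while SLC41A2 fell by 0.99 and the lysosomal channel gene MCOLN1 fell by 1.03.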

How the data were processed

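The deposited table gives a linear intensity for 54613 probe sets on each array. The sources used here do not give the authors' background correction, probe summary or scaling. RNA was isolated with an RNeasy kit and labelled as biotinylated cRNA, per the labels' protocols. The number of arrays limits the precision. The labels do not say that the arrays came from separate cultures, so the p-values reflect no more than the spread of these samples, possibly a technical one. Identical values made up 1.07% to 1.23% of any pair of arrays, so no array is a copy of another. Each was counted as 1 sample, but that share does not show that the samples are independent.

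Names came from GEO's platform annotation of the probe sets, in which 41091 carried 1 symbol, 1801 several and 11721 none, and symbols were brought up to date through RefSeq for 41037. No member symbol changed. Intensities were turned into log2(intensity + 16) and the conditions were contrasted, hypoxia minus normoxia, by the moderated test of limma 3.58.1 (lmFit, eBayes; R 4.3.3). P-values are two-sided and Benjamini-Hochberg adjusted over 19775 genes (the brightest single-symbol probe set each) or over all probe sets. Calls use an adjusted p of 0.05. The fit was tested on simulated data. Titles number the arrays 0 to 2 in each condition. Members and lists were chosen with earlier results of these data known. Array values are given for members past the threshold and for MT3 and MT1M, the last 2 outside the rule for named genes. Alternatives were other pseudocounts (1 and 64), quantile normalization, median centring, an intensity trend, leaving out dim genes, averaging each gene over its probe sets, no _x_at probe sets, a replicate block and leaving out each array.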

Additional observations from a re-analysis of the deposited data

How the results depend on the processing

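Of the 21 member genes past the threshold, 16 kept their call and direction under every alternative that could be run for them. The exceptions were MT1G, MTF1, SLC30A5, SLC30A9 and SLC39A9. MT1E, MT1F, MT1H, MT1HL1, MT1X and MT2A have no probe set other than _x_at, so their calls were not put to the setting without those. SLC39A2 is dim, so its call was not put to the setting without dim genes. Leaving out _x_at probe sets changed most: 28 members remained, 3 rose, 10 fell, and the storage median was -0.068 over the 3 metallothioneins left, which are dim. MT1G was then at -0.18, and at 0.61 (limma adjusted p = 0.0634) as the mean of its probe sets. The export median was -0.17 with median centring and -0.27 without dim genes, and the import median -0.19 and -0.46, or -0.18 with a pseudocount of 1. Leaving out 1 array in turn gave 10 to 11 genes that rose, 8 to 10 that fell, a storage median of 1.93 to 2.16, an export median of -0.16 to -0.062 and an import median of -0.23 to -0.11; the last 2 were farthest from 0 without hypoxia replicate 2. The export median was nearest 0 without normoxia replicate 1. Member probe sets numbered 13 to 14 that rose and 15 to 18 that fell. Deviations of same-numbered arrays correlated over genes at 0.241, 0.00638 and 0.207, against -0.249 to 0.105 for arrays of different numbers. These values do not settle whether the numbers mark pairs, and the main fit did not use them. With the numbers as a replicate block 11 genes rose and 11 fell, and 14 probe sets rose and 20 fell. SLC39A9 was at -0.13 with quantile normalization and at -0.18 as the mean of its probe sets, neither past the threshold. Genes gained were MT1M (without hypoxia replicate 2), SLC30A4 (without normoxia replicate 1), SLC30A8 (replicate block) and SLC39A8 (intensity trend). The causes were not tested.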
